A study of Mus musculus with 10 samples.

Results

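The cold-inducible RNA-binding proteins and the splicing factors of the SRSF, RBM and HNRNP families, with the CLK kinases, are described here in mouse brown adipose tissue. Members were the protein-coding rows of the deposited table whose gene name is Cirbp or Clk1 to Clk4, starts with Hnrnp, or starts with Srsf or Rbm followed by a digit. This gave 72 of the 26863 rows: the cold-inducible pair Cirbp and Rbm3, 4 CLK kinases, 11 SRSF genes, 35 other RBM genes and 20 HNRNP genes. Another 4 rows carry such a name with a different biotype and were not included. The rule used names and biotype, not measured values.

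The study sequenced polyA RNA of interscapular brown fat from 5 PnocCre and 5 Wildtype libraries. All 10 samples, controls included, were taken 1 h after clozapine-N-oxide (CNO), a ligand of designer receptors. The series describes PNOC neurons in the medial preoptic area as activated, a part of the hypothalamus that regulates body temperature. The labels do not state the designer receptor, its delivery, whether Wildtype animals carried it, or the animals' age and sex. PnocCre is, by its name, a Cre line for the Pnoc gene. Each sample title carries its own number, but the labels do not say that each library is its own animal. The p-values therefore rest on a spread whose source, between animals or technical, is not stated.

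Cold-inducible RNA-binding proteins are small glycine-rich proteins with an RNA recognition motif. Their mRNAs accumulate in mammalian cells under mild cooling and fall on warming, and they bind other mRNAs and affect their stability, translation and polyadenylation. SR proteins (SRSF) bind exonic enhancers and favour exon inclusion, while many hnRNPs favour skipping, so the balance of these families shapes alternative splicing. CLK kinases phosphorylate the serine-arginine tails of SR proteins, and their activity in mammalian cells is higher at lower temperature. Brown fat is itself a heat-producing tissue.

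The libraries held 21304238 to 29171787 recovered reads, and the members together took 0.311% to 0.605% of a library's reads. Values below are normalised counts, the deposited read counts divided by 1 size factor per library. All 12 brown adipocyte markers were detected in every library, with summed levels of 335039 to 434160 in PnocCre and 404303 to 492975 in Wildtype. Skeletal muscle markers summed to 9462, 27946, 53466, 119735 and 221236 in PnocCre libraries 1 to 5, and to 2294 to 28862 in Wildtype. Of the 21 muscle markers, 9 were at 0 in at least 1 Wildtype library. Lymphocyte markers summed to 6568 in PnocCre 2 and to 114 to 338 in the other 9 libraries. Endothelial markers summed to 34814 and 30247 in PnocCre 1 and 2 and to 31324 in Wildtype 1, against 15976 to 21612 in the other 7. Macrophage markers were also highest in PnocCre 1 and 2, at 3926 and 4742 against 2195 to 3200 elsewhere. In limma's point estimates, 10 of 10 fibroblast, 9 of 10 macrophage and 6 of 7 tested proliferation markers were higher in PnocCre, and 12 of 12 brown adipocyte markers were lower. DESeq2 called 5, 3, 4 and 2 of these at an adjusted p under 0.05, and limma called none. In whole tissue, fewer cells of a type and less RNA per cell cannot be told apart.

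The promoters of 2 members are shown because they carry a cold-response element and a cAMP response element. The 8-base sequence TCCCCGCC is known from mouse Cirbp as the mild cold-response element. The palindrome TGACGTCA is the cAMP response element, bound by CREB downstream of adrenergic signalling. Both are the 250 bases before the gene's start, from RefSeq on GRCm38.p6, 5′ to 3′ on the gene's strand, with the matching element in capitals. The Cirbp stretch is chr10:80167589-80167838 on the plus strand and the Clk4 stretch is chr11:51262864-51263113 on the plus strand.
Cirbp: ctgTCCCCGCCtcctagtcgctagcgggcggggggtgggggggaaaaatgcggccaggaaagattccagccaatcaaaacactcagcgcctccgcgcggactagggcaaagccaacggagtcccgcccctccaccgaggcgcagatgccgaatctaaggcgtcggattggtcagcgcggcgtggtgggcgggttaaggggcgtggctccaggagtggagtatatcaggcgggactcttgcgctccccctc
Clk4: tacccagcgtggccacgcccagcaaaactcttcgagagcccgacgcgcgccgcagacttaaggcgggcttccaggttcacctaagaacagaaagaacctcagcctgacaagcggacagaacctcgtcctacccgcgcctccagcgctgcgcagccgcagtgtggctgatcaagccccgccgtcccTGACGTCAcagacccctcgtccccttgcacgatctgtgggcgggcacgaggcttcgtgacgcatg
The element began 247 bases before the start in Cirbp and 65 bases before it in Clk4.

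RefSeq promoters were at hand for 62 of the 72 members. Only the bases before the start were searched, on both strands. The motif shares are set beside all 27025 genes with a promoter, tested here or not. TCCCCGCC was present in 5 of the 62 (8.06%), beside 1452 of those genes (5.37%). TGACGTCA was present in 1 of the 62, Clk4 (1.61%), beside 478 genes (1.77%). GAANNTTC, the core of the heat shock element, was present in 5 (8.06%), which were Hnrnpa2b1, Hnrnpf, Hnrnpl, Rbm45 and Srsf9, beside 2088 genes (7.73%). The TCCCCGCC windows of the other 4 members are given with the element in capitals, printed for Hnrnpa0 as its reverse complement GGCGGGGA.
Rbm19: cctttcccccgTCCCCGCCaaccccgcctt
Hnrnpf: ctcagccctctTCCCCGCCctgagtcttcc
Hnrnpa0: aaaccgcggagGGCGGGGAggccgcgaccg
Srsf7: gaaaaaaagaaTCCCCGCCcgccgcctata
These windows lie at chr5:120116405-120116434 (plus strand), chr6:117917183-117917212 (plus strand), chr13:58128672-58128701 (minus strand) and chr17:80207331-80207360 (minus strand) of GRCm38.p6. The log2 fold changes of their genes, PnocCre over Wildtype, were -0.11 for Rbm19, -0.06 for Hnrnpf, -0.02 for Hnrnpa0 and 0.20 for Srsf7, and 0.59 for Cirbp. The promoters of the members had a median GC content of 61%, beside 60% for 10339 protein-coding genes tested. Their ratio of observed to expected CpG was above 0.6 in 53 of 62 (85.5%), beside 65.9% of those genes.

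PnocCre was compared with Wildtype to see how these RNAs differ in brown fat when the neurons are described as activated. No member passed limma's test at an adjusted p under 0.05, and none of the 15301 genes tested did (0%). The smallest adjusted p of a member was 0.153, for Srsf4. Of the 72 members, 68 had a mean of at least 10 normalised counts and were tested; Srsf12, Rbm46, Rbm42 and Rbm11 were not. At an unadjusted p under 0.05 there were 7 of 68 members, beside 2603 genes (17.0%). Srsf4, Cirbp, Rbm24, Hnrnpa1 and Srsf5 were higher in PnocCre, beside 8.94% of all genes in that direction, and Hnrnpab and Rbm28 were lower, beside 8.07%. The members' count was not above the share of all genes. DESeq2 on the recovered reads called 1 member, Srsf4, beside 575 of 16733 genes (3.44%). The authors' deposited table likewise has Srsf4 as its 1 called member, higher in PnocCre, beside 2.20% of genes in that direction. edgeR's quasi-likelihood test called none of 15070 genes, with 2569 at an unadjusted p under 0.05. The groups did not overlap for 2 members, Srsf4 and Rbm28, beside 673 of all genes (4.40%).

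The point estimates leaned towards higher values in PnocCre. The log2 fold change was above 0 for 46 of the 68 tested members (67.6%) with a median of 0.10, beside 49.3% of all genes and a median of -0.01. With the deposited values rescaled by TMM factors, which moved the median of all genes to 0.02, 50 members were above 0 and their median was 0.13. Without PnocCre 1 and 2 the lean was gone: 29 of 68 were above 0 and the median was -0.02. These libraries were left out after the data had been seen. Removing libraries where the members are high lowers the PnocCre side by construction, so this is not a separate test of the lean. PnocCre 2 held the highest of the 10 values for 22 members and PnocCre 1 for 19, that is 32.4% and 27.9% of the members, beside 18.6% and 14.7% of all genes. PnocCre 5 and Wildtype 5 held the lowest value for 16 and 15 members. Whether the lymphocyte, endothelial or macrophage levels of PnocCre 1 and 2, or the fibroblast, proliferation and brown adipocyte markers given above, play a part was not tested.

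**Figure D1:**
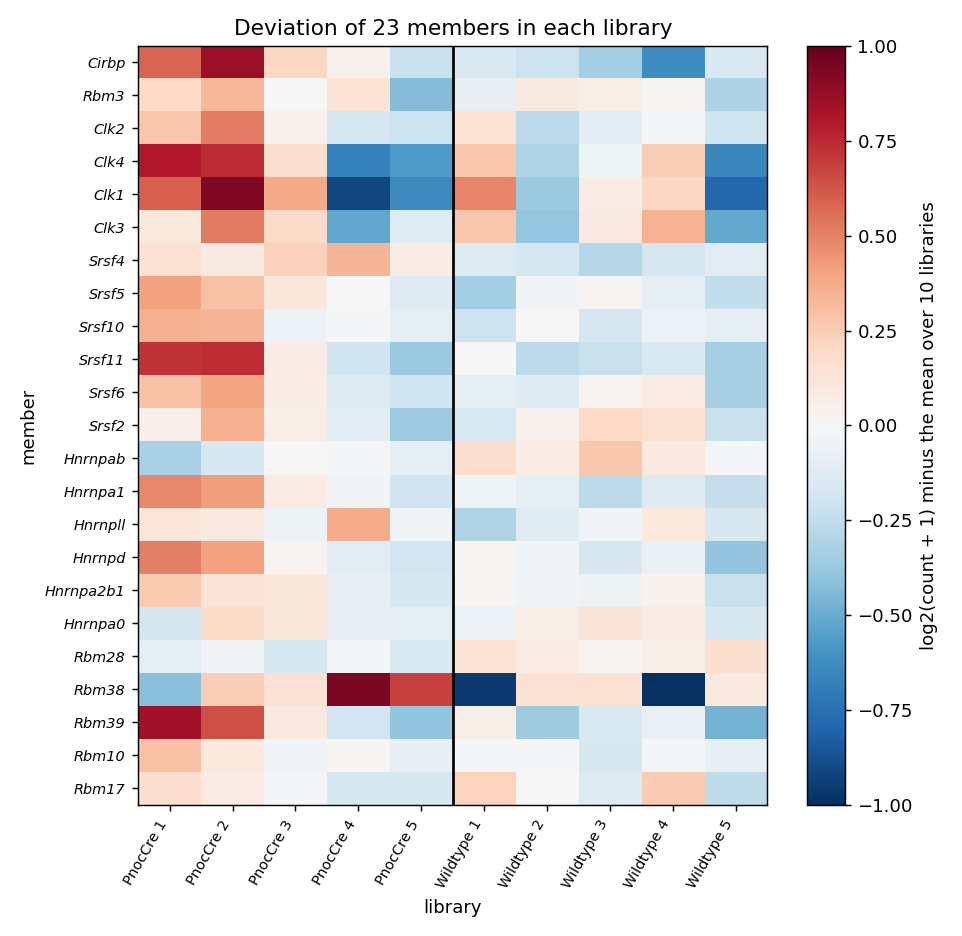
Log2(normalised count + 1) minus its mean over the 10 libraries for 23 members named in the text (all but Rbm24, whose range is far wider), 1 row per member and 1 column per library, with colours capped at 1 in either direction. The columns of PnocCre 1 and 2 are mostly above the members' means, and those of PnocCre 5 and Wildtype 5 are mostly below.

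Most members sat close to their Wildtype level. The 95% interval of the log2 fold change lay within 0.5 of 0 for 39 of the 68 (57.4%). This held for 33.7% of all genes and 38.5% of the protein-coding genes tested. It also held for 24 of 38 core spliceosome genes (63.2%) and 23 of 42 splicing regulators outside the member families (54.8%). The trait was therefore not particular to the members. A log2 fold change under 0.25 in size was found for 55 of the 68, beside 8734 of 15301 genes. The median SD of the log2 values was 0.261 in PnocCre and 0.176 in Wildtype, against 0.334 and 0.244 over all genes. The SD was larger in PnocCre for 52 of the 68 members (76.5%), beside 70.2% of all genes.

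**Figure D2:**
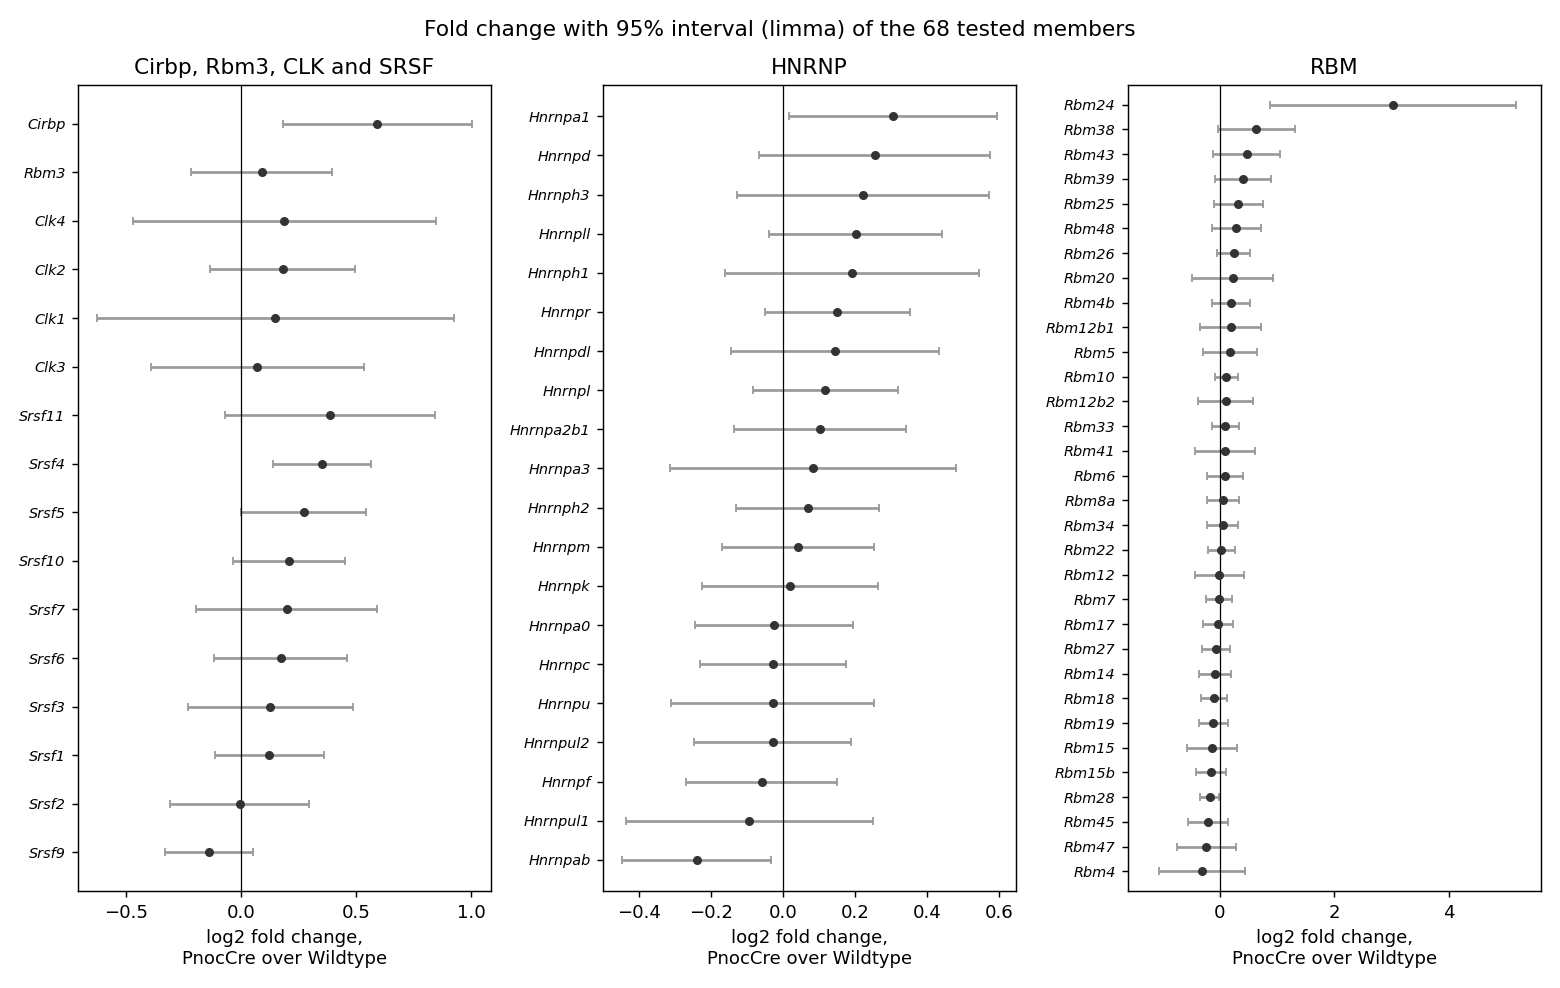
Log2 fold change of each tested member, PnocCre over Wildtype, with its 95% interval from limma, ordered within its family. Most intervals cross 0, Rbm24 lies far to the right at 3.03 with a wide interval, and Srsf4 (0.35) and Cirbp (0.59) are among those whose interval lies above 0.

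Cirbp, which binds and stabilises mRNAs of stressed cells (chr10:80001819-80008620, plus strand, GRCm39), had the second smallest p among the members. Its levels were 892, 1086, 688, 614 and 512 in PnocCre libraries 1 to 5 and 537, 514, 469, 387 and 534 in Wildtype libraries 1 to 5. PnocCre 1 and 2 were the highest, and 4 of 5 PnocCre libraries lay above every Wildtype library, while PnocCre 5 lay inside the Wildtype range. The means were 758 ± 230.1 and 488 ± 62.9 (SD, n = 5 each), a log2 fold change of 0.59 (SE 0.19, 95% interval 0.18 to 1.00). limma's adjusted p was 0.179, and the authors' deposited table gives 0.0547. Leaving out 1 library moved the log2 fold change to between 0.45 (without PnocCre 2) and 0.72 (without PnocCre 5), and DESeq2 called Cirbp without PnocCre 4 or without PnocCre 5. Without both PnocCre 1 and 2 it was 0.31, with limma's adjusted p at 0.442. With the mean log2 level of the muscle markers as a covariate it was 0.97.

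Rbm3, the other cold-inducible member and a regulator of mRNA translation (X:8005214-8012119, minus strand, GRCm39), had levels of 1187, 1301, 1034, 1138 and 768 in PnocCre and 981, 1104, 1078, 1045 and 838 in Wildtype. The groups overlapped through most of their range, and PnocCre 5 was the lowest library of all. The means were 1086 ± 202 and 1009 ± 106, with a log2 fold change of 0.09 and a 95% interval of -0.22 to 0.40 (limma's adjusted p 0.749). Without PnocCre 1 and 2 the sign turned, to -0.05. Rbm3os, on the opposite strand of the same locus, had a mean of 8.24. How reads shared by both genes were counted, if strand was not used, is not given.

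The level of Cirbp relative to Rbm3 was compared after their values had been seen. The log2 ratio of Cirbp to Rbm3 was -0.41, -0.26, -0.59, -0.89 and -0.58 in PnocCre and -0.87, -1.10, -1.20, -1.43 and -0.65 in Wildtype. PnocCre 4 lay inside the Wildtype range and the other 4 PnocCre libraries lay above it. The group means differed by 0.50, with a 2-sided exact permutation p of 0.0238, where 252 assignments allow no p below 0.00794. Because the ratio was chosen from these same values, that p is descriptive and is not evidence of a difference. Without PnocCre 1 and 2 the difference was 0.36 and the exact permutation p 0.125. Across the 10 libraries the log2 levels of both genes had a Pearson r of 0.564 and a Spearman rho of 0.515, with permutation p-values of 0.0863 and 0.135 after adjustment over 2 relations. Without PnocCre 1 and 2, the libraries farthest from the median of Cirbp, r was 0.053, so the relation rested on them. The sign of r was positive in PnocCre and negative in Wildtype. Groups of 5 are too small for a correlation of their own, so whether the relation differs between them cannot be told.

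**Figure D3:**
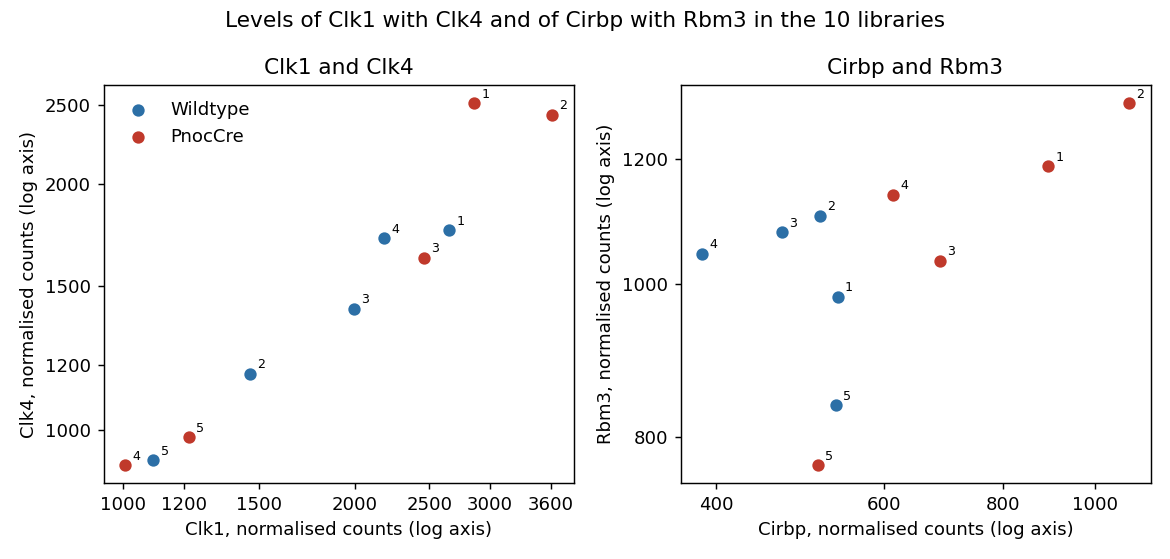
Normalised counts on log axes of Clk4 against Clk1 and of Rbm3 against Cirbp, 1 numbered point per library, with PnocCre in red and Wildtype in blue. PnocCre 1 and 2 stand to the right for Cirbp, and the points of Clk1 and Clk4 lie close to a line in both groups.

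The CLK kinases were the most variable family, and none differed between the groups beyond its spread. Clk1, a dual-specificity kinase of SR proteins, had levels of 2857, 3614, 2459, 1005 and 1216 in PnocCre and 2651, 1461, 1995, 2184 and 1094 in Wildtype. PnocCre held both the highest and the lowest library. The log2 fold change was 0.15 with a 95% interval of -0.62 to 0.92 (limma's adjusted p 0.842), an interval that leaves sizeable differences in either direction undetectable at this spread. Clk4, its close paralogue, had 2515, 2434, 1625, 905 and 979 in PnocCre and 1756, 1172, 1407, 1718 and 918 in Wildtype. It showed the same order of PnocCre libraries apart from its top pair, and its log2 fold change was 0.19 with an interval of -0.47 to 0.85. Clk2 had 804 ± 174 and 699.6 ± 78.3 normalised counts and Clk3 had 1295 ± 334 and 1233 ± 317, with log2 fold changes of 0.18 and 0.07. All 4 estimates turned below 0 without PnocCre 1 and 2, at -0.31 for Clk1, -0.02 for Clk2, -0.11 for Clk3 and -0.26 for Clk4. That removal was chosen after the data had been seen, so the turn is not a separate test.

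Clk1 and Clk4 moved together from library to library. Over the 10 libraries their log2 levels had a Pearson r of 0.971 and a Spearman rho of 0.976, each with a permutation p of 4e-05 after adjustment over 2 relations, with 100000 resamples. Without PnocCre 4 and Wildtype 5, the libraries farthest from the median of Clk1, r was 0.953, and leaving out 1 library gave 0.962 to 0.990. The points share library and depth. Correlations of Clk1 or Clk4 with other genes were not computed, so whether the relation is particular to this pair was not tested. The median SD of log2 values was 0.542 in PnocCre and 0.391 in Wildtype for the 4 kinases, against 0.168 and 0.116 for the 20 HNRNP genes. GENCODE M21 lists 13 transcripts for Clk1, 7 of them retained-intron and 2 nonsense-mediated decay, and 14 for Clk4, 7 and 3. Gene counts sum over such forms and do not show splicing.

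Among the SRSF genes, 8 of the 10 tested had a log2 fold change above 0, with a median of 0.19. Srsf4, an SR protein with a long serine-arginine domain (chr4:131600928-131629017, plus strand, GRCm39), had the smallest p of all members. Its levels were 322, 311, 344, 369.7 and 307 in PnocCre and 265, 258, 239, 259.8 and 269.6 in Wildtype. Every PnocCre library lay above every Wildtype library, which held in this direction for Srsf4 alone among the tested members, beside 274 genes (1.79%). The means were 331 ± 25.9 and 258 ± 11.5, a log2 fold change of 0.35 (SE 0.10, 95% interval 0.14 to 0.57). limma's adjusted p was 0.153 and the authors' deposited table gives 0.0390. The log2 fold change stayed between 0.31 and 0.38 when 1 library was left out and was 0.39 without PnocCre 1 and 2, while DESeq2 called it in 1 of 10 such fits, without PnocCre 5. A930004J17Rik overlaps it on the same strand with a mean of 31.8, and Gm12992 on the opposite strand with 12.6. How shared reads were counted is not given, so the count of Srsf4 is uncertain.

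Srsf5, an SR protein whose mRNA is among the most abundant here, had levels of 6304, 5873, 5176, 4776 and 4382 in PnocCre against 3779, 4689, 4870.1, 4474 and 4038 in Wildtype. PnocCre 1 to 3 lay above all Wildtype libraries and the other 2 inside their range. The log2 fold change was 0.27 with an interval whose lower end was just above 0 (limma's adjusted p 0.291), and 0.13 without PnocCre 1 and 2. Srsf11, a component of interchromatin granules, had 5993, 6068, 3818, 3169 and 2805 in PnocCre against 2892 to 3638 in Wildtype. PnocCre 1 and 2 stood far above the rest, and the log2 fold change of 0.39 dropped to 0.03 without them. Srsf10, an SR-like protein that represses splicing when dephosphorylated on heat shock, had 1459.8 ± 230.2 and 1250.4 ± 70.2, a log2 fold change of 0.21 (limma's adjusted p 0.348). Srsf6 had 2402 ± 430.0 and 2113 ± 229 (0.17 on the log2 scale). Srsf2, known as SC35, had 2301 ± 419.7 and 2293 ± 289, a difference whose sign turned with the scaling, from -0.01 to 0.02 under TMM rescaling. Summed over the 11 SRSF genes, the libraries held 27867, 27560, 22282, 20099 and 18299 in PnocCre and 18450 to 20841 in Wildtype.

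**Figure D4:**
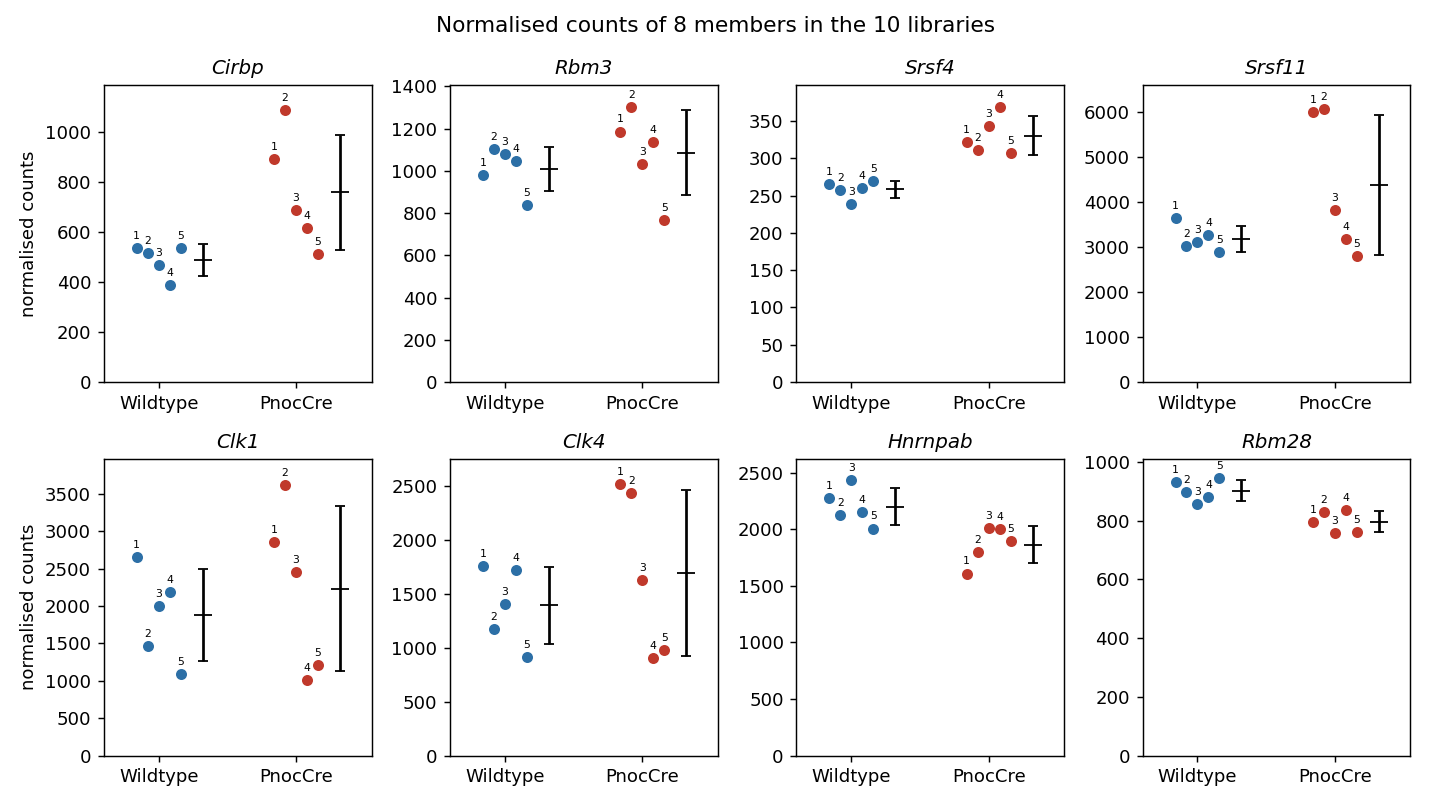
Normalised counts of 8 members, 1 numbered point per library (PnocCre red, Wildtype blue), with the mean and SD of each group of 5 in black. The groups of Srsf4 and of Rbm28 do not overlap, while PnocCre 5 lies in the Wildtype range for Cirbp.

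The HNRNP genes were the steadiest family. Of the 20, all tested, 13 were above 0 and 7 below, the median log2 fold change was 0.08, and 16 (80%) had a 95% interval within 0.5 of 0. Hnrnpa1, which represses exon inclusion, had 2161, 2063, 1639, 1517 and 1345 in PnocCre and 1500.1, 1446, 1287, 1412 and 1316 in Wildtype. The first 4 PnocCre libraries lay above the Wildtype range, and the log2 fold change was 0.30 (unadjusted p 0.040 and adjusted p 0.272 with limma), and 0.11 without PnocCre 1 and 2. Hnrnpab, which binds RNA and also DNA promoter elements, went the other way, with 1608, 1802, 2007, 2001 and 1897 against 2274, 2122, 2432, 2155 and 2005. The groups overlapped only by PnocCre 3 against Wildtype 5, and the log2 fold change was -0.24 (95% interval -0.45 to -0.03, limma's adjusted p 0.240). Hnrnpd, known as AUF1 and a factor of AU-rich mRNA decay, had 988 ± 216 and 817 ± 88.6. Hnrnpll, a splicing regulator known from lymphocytes, had 745 ± 91.5 and 647 ± 68.2, with 895 in PnocCre 4 as its highest library. Hnrnpa2b1, a splicing and RNA transport factor, had 8692 ± 1021 and 8074 ± 543, with an interval of -0.14 to 0.34. Hnrnpa0, an AU-rich element binder, had 1767 ± 191 and 1793 ± 142, with a log2 fold change of -0.02 that was slightly above 0 under TMM rescaling.

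Of the 32 RBM genes tested besides Rbm3, 19 were above 0 and 13 below, with a median log2 fold change of 0.08. Rbm28, a nucleolar protein linked to ribosome assembly and spliceosomal snRNPs, had 797, 829.8, 757, 836 and 763 in PnocCre and 931, 896, 858, 881 and 945 in Wildtype. Every PnocCre library lay below every Wildtype library, which held for Rbm28 alone among the tested members in this direction, beside 399 genes (2.61%). The means were 797 ± 36.4 and 902 ± 35.8, a log2 fold change of -0.18 (SE 0.08, limma's adjusted p 0.271), and -0.12 with the muscle covariate. Rbm39, a splicing factor related to U2AF, had 7451, 6489, 4455, 3648 and 3159 against 4327, 3250.5, 3729.8, 3936 and 2992. PnocCre 1 and 2 were again highest, and the log2 fold change of 0.40 (limma's adjusted p 0.371) was 0.04 without them. Rbm10, an exon-skipping regulator, had 934 ± 99.1 and 859 ± 37.5, but Ndufb11 lies on the opposite strand with a mean of 9145, so the value is uncertain without the strand setting. Rbm17, known as SPF45, had 890.4 ± 89.8 and 919 ± 138.

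Rbm24, Rbm38 and Rbm20 are known for roles in striated muscle, and all had their highest levels in PnocCre 4 and 5, the libraries with the most muscle marker RNA. Rbm24, a muscle splicing regulator, had 11.3, 75.4, 64, 136 and 175 in PnocCre against 3.29, 0, 30.6, 36.1 and 6.97 in Wildtype. PnocCre 1 lay inside the Wildtype range and the other 4 above it, and Wildtype 3 and 4, the Wildtype libraries with the most muscle marker RNA, were the highest of that group. The log2 fold change was 3.03 (SE 0.98, 95% interval 0.88 to 5.18, limma's adjusted p 0.183), and 0.52 with the mean log2 level of the muscle markers as a covariate. DESeq2 gave 2.59, edgeR 2.62 and limma-voom 3.28. Leaving out 1 library with limma gave 2.27 (without Wildtype 2, the library at 0) to 3.65 (without PnocCre 1). Rbm38, a regulator of mRNA stability also known from muscle differentiation, had 292, 460.3, 430.1, 746 and 626 in PnocCre and 200.1, 430.4, 431, 189.9 and 416 in Wildtype. Wildtype 4, among the Wildtype libraries with the most muscle marker RNA, was the lowest of all 10. The log2 fold change was 0.64, and 0.43 with the covariate (limma's adjusted p 0.309 without it). Rbm20, the regulator of titin splicing in heart muscle, had 38.9, 57.2, 59.5, 105 and 145 in PnocCre against 50.2, 73.2, 67.5, 50.1 and 74.4 in Wildtype. PnocCre 4 and 5 were above all others, while Wildtype 4 was the lowest of its group and Wildtype 3 its median. The muscle markers as a list were higher in all 20 members tested, with a median log2 fold change of 5.06. Muscle marker level and genotype thus overlap, and the fit with the covariate cannot tell them apart. Whether muscle RNA accounts for any of these differences was not tested.

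**Figure D5:**
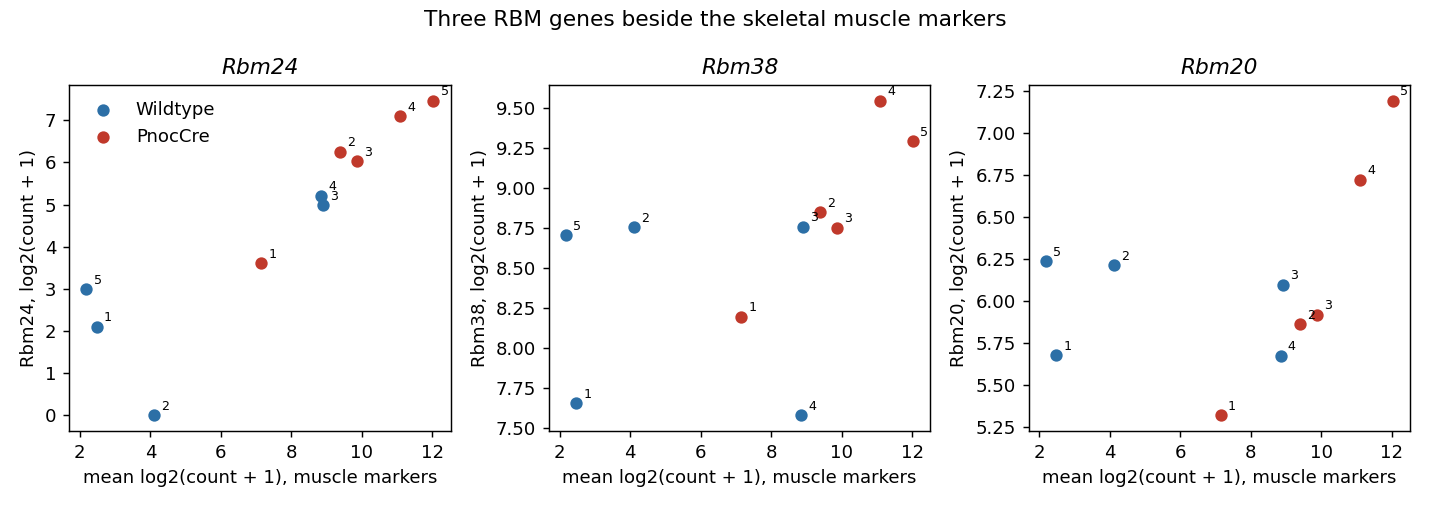
Log2(count + 1) of Rbm24, Rbm38 and Rbm20 against the mean log2(count + 1) of the skeletal muscle markers, 1 numbered point per library, with PnocCre in red and Wildtype in blue. PnocCre 4 and 5 lie at the right with the highest levels of all 3 genes, and the Wildtype libraries 3 and 4 lie to the right of the other Wildtype libraries.

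With the muscle covariate, 42 of the 68 members were above 0 with a median of 0.10, and 10 were at an unadjusted p under 0.05, beside 22.3% of all genes. Of those, 7 were higher, beside 10.2% of all genes, and 3 lower.

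Abundance differed widely among the members. Per kilobase of gene length, and as a mean over all 10 libraries, Hnrnpa2b1 was highest at 1273 normalised counts, followed by Srsf5 at 1213 and Srsf2 at 777. Hnrnpab (730), Hnrnpa0 (665) and Hnrnpl (653) came next. Cirbp and Rbm3 stood at 239 and 223 normalised counts per kilobase, close to each other and above the RBM median. Among the tested members, Rbm4 (6.05), Rbm41 (7.13) and Rbm20 (10.6) were lowest. Rbm4 shares same-strand sequence with Gm21992, as does Rbm14, so their counts are uncertain. In all, 33 members overlap another row, 11 on the same strand and 28 on the opposite one.

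Genes annotated with nonsense-mediated decay or retained-intron forms were common among the members. GENCODE M21 lists a nonsense-mediated decay transcript for 36 of the 68 tested members (52.9%), beside 28.3% of 13062 protein-coding genes tested. A retained-intron transcript is listed for 49 of the 68 (72.1%), beside 58.3% of those genes. These shares do not take into account how many transcripts are listed per gene. Cirbp has 7 transcripts there, 4 of them retained-intron and 1 nonsense-mediated decay, and Rbm39 has 25, with 7 and 8.

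Other splicing genes were read from the same fit. Of 42 tested splicing regulators outside the member families, 24 were above 0 and 18 below, with a median log2 fold change of 0.08 and 9 at an unadjusted p under 0.05 by limma, beside 17.0% of all genes. Of these, 5 were higher, beside 8.94%, and 4 lower, beside 8.07%, which is close to the shares of all genes. Elavl1, known as HuR and a stabiliser of AU-rich mRNAs, averaged 883 ± 68.1 in PnocCre against 1131 ± 102 in Wildtype, with no overlap between the groups. Its log2 fold change was -0.36, with an adjusted p of 0.142 by limma and 0.0267 by DESeq2. Rbfox1, a splicing factor of muscle and neurons, had 93.7 ± 76.1 and 12.5 ± 13.8, a log2 fold change of 2.97 that was 0.59 with the muscle covariate. Of 38 core spliceosome genes, 19 were above 0 and 19 below, with 2 higher and 1 lower at an unadjusted p under 0.05, beside the same 8.94% and 8.07% of all genes. Snrpb, a core Sm protein, had 1633 ± 89.4 and 1928 ± 112 without overlap (limma's adjusted p 0.196), and Snrnp70, of the U1 snRNP, had 3952 ± 598 and 3193 ± 209 (limma's adjusted p 0.230). Of 8 other kinases of SR proteins, 4 were above 0 and 4 below. Dyrk1b had 748 ± 159 and 956 ± 41.9, and Srpk3, a kinase of striated muscle, had 104 ± 43.9 and 59.8 ± 14.6.

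Heat shock genes, which respond to temperature in the opposite direction to cold-inducible genes, were read beside the members. Of 20 tested, 1 was above 0 and 19 below, with a median log2 fold change of -0.34. At an unadjusted p under 0.05, 6 were lower, beside 8.07% of all genes, and none was higher, beside 8.94%. limma and DESeq2 called none of the 20 at an adjusted p under 0.05. Their summed level was lowest in PnocCre 2, at 69639. It ran from 90501 to 111430 over the remaining 4 PnocCre libraries, and Wildtype held 113394 to 135366. The brown adipocyte markers were lower in the same comparison, and whether they bear on this was not tested.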

How the data were processed

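PolyA RNA was prepared into strand-specific (dUTP) libraries, per the labels' protocols. Reads were handled with HISAT2 2.0.5, featureCounts 1.5.0-p3 and DESeq2 on GRCm39, per the submitters' processing notes; the annotation release is not given in the sources used here, nor is the strand setting. The deposited signal per library is a normalised count: the authors divided the read count of each gene by a size factor, 1 per library (0.858 to 1.21). At a tolerance of 0.01 reads, 100% of values came out as whole reads. The authors' log2 fold changes, p-values and adjusted p-values are deposited in the same table, where 10130 rows have an adjusted p of 1 and were taken as not tested. Levels per kilobase use the deposited gene length in bases, named in the file headers.

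limma-trend (limma 3.58.1, R 4.3.3, robust moderation, 2-sided) was run on log2(value + 1) for 15301 genes with a mean of at least 10, with Benjamini-Hochberg adjustment over all of them and a threshold of 0.05. Fold changes of low genes are uncertain on this scale. The added 1 pulls them towards 0, but a library at 0 can make them larger. For Rbm24 this scale gave 3.03, against 2.59 with DESeq2. edgeR 4.0.16, DESeq2 1.42.0 and limma-voom on the recovered reads, TMM rescaling, other filters and pseudocounts, library weights, a muscle marker covariate and each library left out in turn were alternatives. Leaving out PnocCre 1 and 2 together and the ratio of Cirbp to Rbm3 were added after the data were seen.

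The members and gene lists were chosen with earlier results of these data known. Genes were named by a rule that takes Cirbp, Rbm3 and the CLK genes, in each other family the 4 smallest p and the 3 highest levels per kilobase, members called in the deposited table and members whose groups do not overlap, 24 in all. Rbm20, Rbm41, Rbm4, Rbm14, Rbm19, Hnrnpf, Hnrnpl, Rbm45, Srsf7 and Srsf9 were named for other reasons. Scripts were tested on simulated data. Promoters came from RefSeq on GRCm38.p6 and transcript classes from GENCODE M21; no coordinates were converted.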

Additional observations from a re-analysis of the deposited data

Results flagged for a closer look

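The mean log2 level of the lymphocyte markers was 8.74 in PnocCre 2, far above the other 4 PnocCre libraries, which ran from 2.59 to 4.11. This was the 1 outlying library found among 52 groups of values screened, and chance gives about 1 in 20 such groups. PnocCre 2 held the highest value for 22 of the 68 tested members. Whether the lymphocyte RNA plays a part in that was not tested.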

How the results depend on the processing

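limma called 0 of 15301 genes and 0 members, with 7 members at an unadjusted p under 0.05. DESeq2 called 575 genes and 1 member, with 11 members at an unadjusted p under 0.05, and limma with library weights called 53 genes. Leaving out 1 library, with limma or DESeq2, gave 0 to 745 genes called, 0 to 2 members called and 4 to 14 members at an unadjusted p under 0.05. With limma that last count was 4 without PnocCre 1, PnocCre 3 or Wildtype 1 and 12 without PnocCre 5; it was 4 without PnocCre 1 and 2 together, where the difference in the log2 ratio of Cirbp to Rbm3 was 0.36 with an exact permutation p of 0.125. Without those libraries the log2 fold change turned to -0.31 for Clk1, -0.021 for Clk2, -0.11 for Clk3, -0.26 for Clk4 and -0.055 for Rbm3. Clk3 was -0.041 with the muscle covariate. Hnrnpa0 was 0.0088 with edgeR, 0.0052 with limma-voom and 0.0023 with TMM rescaling, and Srsf2 was 0.037, 0.023 and 0.022 with these and 0.0048 with DESeq2. Leaving out 1 library gave -0.066 to 0.43 for Clk1, -0.068 to 0.21 for Clk3, -0.076 to 0.019 for Hnrnpa0, -0.11 to 0.019 for Rbm17 and -0.098 to 0.085 for Srsf2. The cause was not tested. The sign turned in 39 of 744 log2 fold changes computed for the 24 named members, in 8 of the genes. No paired analysis was possible because the labels carry no replicate numbers and the numbers used follow accession order. With 5 libraries a group, differences smaller than the intervals given were not detectable.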
